A study of Brassica rapa with 9 samples.

Results

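TT8 and MYBL2, an activator and a repressor of the anthocyanin pathway, were examined in Brassica rapa seedlings as 3 gene IDs of the 41020 in the count files: Bra037887 for TT8, and Bra007957 and Bra016164 for copies of MYBL2. The set is defined by ID and name, it was picked with earlier results of these data known, and all 3 IDs were found in every library. The count files hold IDs without names, and none of the 3 IDs occurs in a RefSeq gene table of the CAAS_Brap_v3.01 assembly, which lists 1 gene as TT8 and 1 each as MYBL2-1 and MYBL2-2. The names used here therefore come from the definition of the set and were not checked against an annotation, and it was not determined which ID is MYBL2-1.

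The libraries were made from whole, 2-week-old seedlings of the cultivar Chiifu (Kimchi cabbage), grown without heat treatment on half-strength MS medium with 0.5% sucrose in a light regime that the labels abbreviate as LD. Each of 3 genotypes had 3 libraries. NT, labelled Wild-type, was non-transgenic, AtPHYB carried phytochrome B of Arabidopsis thaliana, and G564E carried a mutant form of that receptor in which a glycine is replaced by glutamate. Phytochrome B is a receptor for red and far-red light. The labels name no promoter for the transgenes and do not say whether a genotype was 1 line or whether replicates were separate plants or pools, so p-values reflect only how much these libraries varied, and that variation may be technical. The transgene, the plant line and growth conditions that differed with it cannot be told apart.

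Anthocyanins are red to purple flavonoid pigments of tissues such as leaves and stems. In Arabidopsis, their late biosynthetic genes are switched on by a complex of an R2R3-MYB factor, a bHLH factor such as TT8, and the WD40 protein TTG1. In the same species MYBL2, a small MYB protein with a repression motif, binds the bHLH partner and turns the complex into a repressor, and loss of MYBL2 raises TT8 expression and pigment. The design thus allows the level of the activator and of its antagonist to be read side by side in the 3 genotypes.

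The MYBL2 copy Bra016164 was much lower in G564E than in NT and AtPHYB, and it was the only member that passed the test in any comparison. Its level in G564E was 7.24-fold lower than in NT (95% interval 4.59 to 11.4) and 8.83-fold lower than in AtPHYB (5.57 to 14.0), in comparisons where 27.0% and 35.0% of all tested genes were called. TT8 and the other MYBL2 copy, Bra007957, had at most 20 reads in any of the 9 libraries and passed the test in no comparison. No member passed the test between AtPHYB and NT, where 0.190% of genes did.

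Levels are given as CPM, the reads of a gene per 1000000 reads of a library, with library sizes scaled by TMM, a method that limits the influence of a few abundant genes. Total gene counts ranged from 15262884 to 20998541 per library. 1 read was worth 0.0445 to 0.0678 CPM. Genes were tested with edgeR's quasi-likelihood test on all 9 libraries together, p-values were adjusted by Benjamini-Hochberg over the whole table, and the threshold for a call was an adjusted p of 0.05. Of the 3 members 2 passed the low-count filter and were among the 27967 genes tested. TT8 did not pass it and was taken from a fit without the filter, on 35963 genes. G564E libraries stood apart from the rest over all tested genes, with Spearman correlations of 0.863 to 0.900 to other libraries against 0.947 to 0.978 between NT and AtPHYB. G564E replicate 1 also stood apart within its group, with correlations of 0.915 and 0.912 to the others. NT replicate 3 was closer to AtPHYB replicates 1, 2 and 3 (0.969, 0.970 and 0.978) than to NT replicates 1 and 2 (0.967 and 0.963).

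The repressor copy Bra016164 held 2492, 2970 and 2661 reads in NT replicates 1, 2 and 3, or 149, 145 and 145 CPM. In AtPHYB it held 2829, 3213 and 2833 reads, or 157, 218 and 161 CPM. In G564E it held 274, 497 and 442 reads, or 12.2, 28.0 and 20.5 CPM. All 3 G564E libraries lay far below the other 6, with 28.0 CPM in the highest of them against 145 CPM in the lowest NT library. A separation of this kind, with all G564E libraries below all 6 others, was seen at 16.8% of the tested genes.

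Bra016164 averaged 146 ± 2.55 CPM in the NT libraries, 179 ± 34.2 CPM in those of AtPHYB and 20.2 ± 7.91 CPM in those of G564E (mean ± SD, n = 3). The replicates were tightest in NT, where the highest library exceeded the lowest by a factor of 1.03, against 1.39 in AtPHYB and 2.30 in G564E. Among the tested genes of a library, ordered by CPM, Bra016164 stood at percentiles 95.9 to 97.2 in NT and AtPHYB, and at percentiles 51.4 to 71.9 in G564E. It was thus among the abundant transcripts in NT and AtPHYB and in the middle range in G564E.

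**Figure D1:**
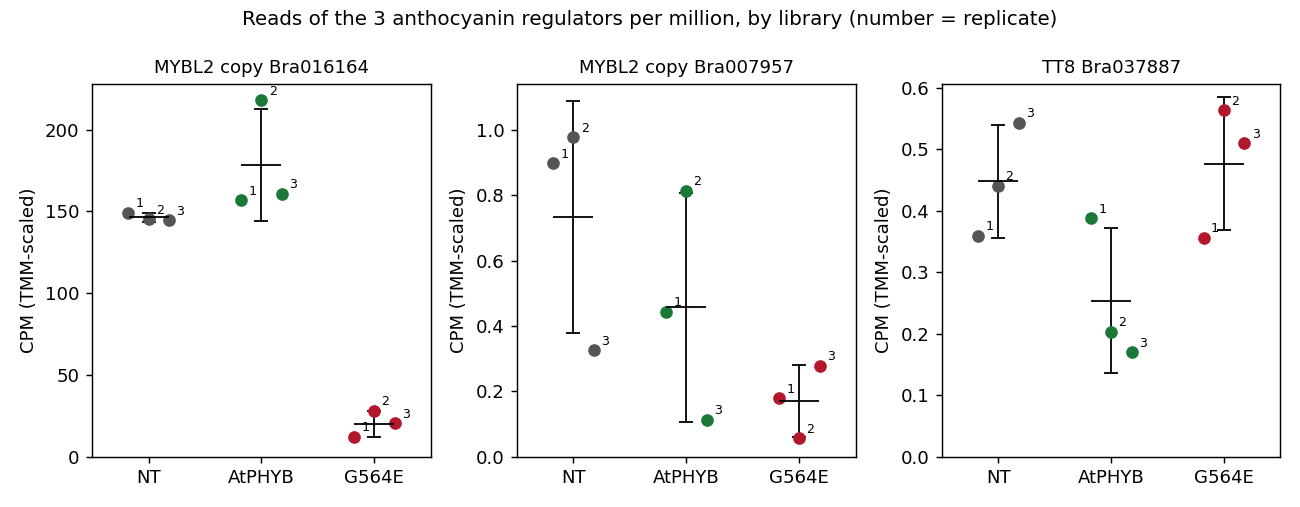
CPM (TMM-scaled) of each member by library, in 3 panels with their own linear axes from 0; points are libraries marked with their replicate number, and horizontal bars with whiskers are means and SDs of 3 libraries. Bra016164 sits at 145 to 218 CPM in NT and AtPHYB and at 12.2 to 28.0 CPM in G564E, whereas Bra007957 and TT8 stay below 1 CPM in every library.

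In G564E minus NT, the log2 fold change of Bra016164 was -2.86 (SE 0.29), with a 95% interval of -3.51 to -2.20 (edgeR adjusted p = 0.000499). Over all genes, 27.0% were called in this comparison and 13.2% were called lower. Of the calls, 51.0% were higher in G564E with TMM and 78.2% with scaling by library size alone, under which 7.79% of the tested genes were called lower. A log2 fold change as low as that of Bra016164 or lower was found at 1.56% of the tested genes. The fall was therefore beyond the spread between libraries. In bulk tissue, fewer cells that express a gene and less RNA per cell cannot be told apart.

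In G564E minus AtPHYB, the log2 fold change of Bra016164 was -3.14 (SE 0.29), with a 95% interval of -3.81 to -2.48 (edgeR adjusted p = 0.000278). In this comparison 35.0% of the genes were called and 16.6% were called lower, and 1.53% of the tested genes had a log2 fold change as low or lower. Here 52.6% of the calls were higher in G564E with TMM and 81.4% with library size alone, under which 8.83% of the tested genes were called lower. The G564E libraries enter both of these comparisons, which are therefore not independent. G564E replicate 1, the library that stood apart, was also the lowest for Bra016164. Without it the log2 fold changes were -2.60 against NT (edgeR adjusted p = 0.000123) and -2.88 against AtPHYB (edgeR adjusted p = 8.01e-05).

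In AtPHYB minus NT, the log2 fold change of Bra016164 was 0.29 (SE 0.27), with a 95% interval of -0.32 to 0.90 (edgeR adjusted p = 0.679). All 3 AtPHYB libraries were above all 3 NT libraries, a pattern met at 13.2% of the tested genes, but the lowest AtPHYB library exceeded the highest NT library only by 157 against 149 CPM. AtPHYB replicate 2 supplied most of the difference, and without it the log2 fold change was 0.12 (edgeR adjusted p = 0.928). In this comparison 0.190% of the genes were called, and 54.7% of these calls were higher in AtPHYB with TMM against 43.1% with library size alone. The order of levels was thus G564E below NT and AtPHYB, with the last pair not distinguished beyond their spread.

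How other abundant genes compared depended on the libraries used to rank them. Of the 980 tested genes at least as abundant as Bra016164 in the mean of NT and AtPHYB, 532 (54.3%) were called lower in G564E than in NT and 30 were called higher. This ranking leaves out G564E and so favours genes that are lower there. Ranked by the mean of all 3 genotypes, 1443 genes were at least as abundant and 41.2% of them were called lower, and ranked by G564E alone 10297 were and 16.6% were called lower, with 1633 called higher. Log2 fold changes at least as low as those of Bra016164 in both G564E comparisons were found at 75 of the 980 genes (7.65%), at 75 of the 1443 and at 55 of the 10297 (0.534%). These shares are set by the ranking and say nothing particular about Bra016164. Each count includes Bra016164 itself, and the rankings that include G564E were added after the data were seen.

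**Figure D2:**
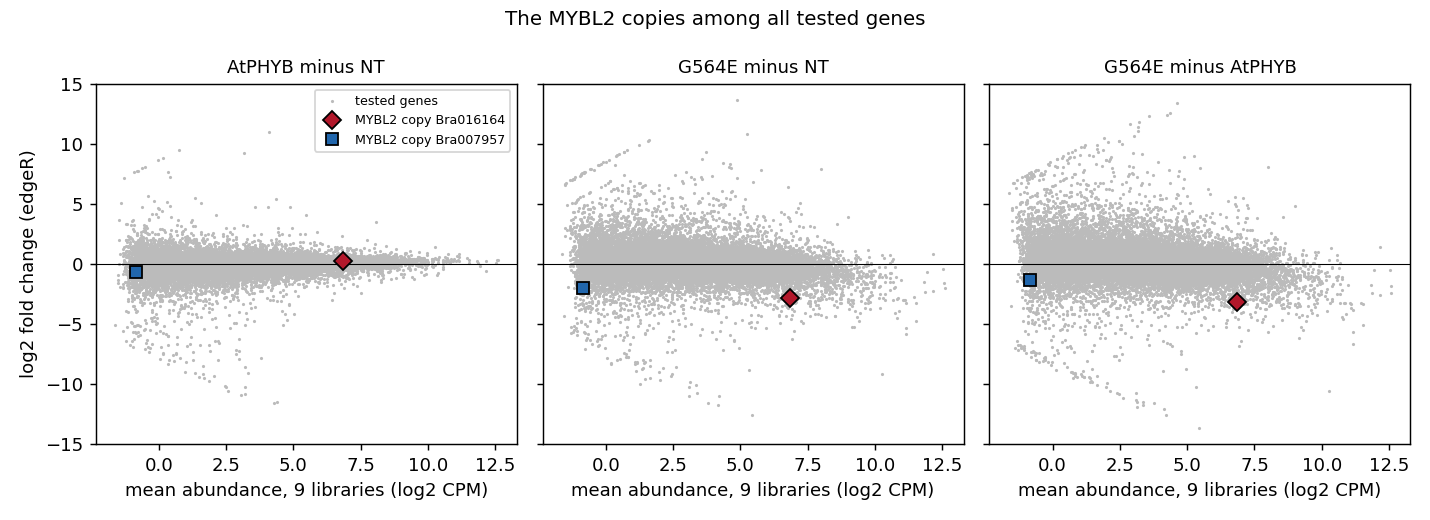
log2 fold change (y axis, edgeR) against mean abundance over the 9 libraries (x axis, log2 CPM) for all 27967 tested genes (grey points), with the MYBL2 copies marked, in 1 panel per comparison. Bra016164 lies near 0 in AtPHYB minus NT and at -2.86 and -3.14 in the G564E comparisons, at a mean abundance above most genes; TT8 is not shown because it did not pass the low-count filter.

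The second repressor copy, Bra007957, had few reads. It had 15, 20 and 6 reads in NT replicates 1, 2 and 3, 8, 12 and 2 reads in AtPHYB, and 4, 1 and 6 reads in G564E. In CPM these were 0.899, 0.979 and 0.326 in NT, 0.443, 0.814 and 0.114 in AtPHYB, and 0.178, 0.0564 and 0.278 in G564E. A library with 3 reads, taken as the floor, would stand at 0.134 to 0.203 CPM, so AtPHYB replicate 3 and G564E replicate 2 lay below the floor. The levels were highest in 2 of the 3 NT libraries, AtPHYB overlapped with NT and G564E, and all 3 G564E libraries were below all 3 NT libraries, though G564E replicate 3 came close to NT replicate 3.

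Bra007957 averaged 0.734 ± 0.356 CPM in the NT libraries, 0.457 ± 0.350 CPM in those of AtPHYB and 0.171 ± 0.111 CPM in those of G564E (mean ± SD, n = 3). In G564E minus NT the log2 fold change was -2.03 (SE 0.79), with a 95% interval of -3.82 to -0.25 (unadjusted p = 0.0299, edgeR adjusted p = 0.0855). The gene was lower in 3 of 3 G564E libraries but missed the threshold after adjustment. Separation of G564E below NT was seen at 21.6% of the tested genes. In G564E minus AtPHYB the log2 fold change was -1.33 with a 95% interval of -3.18 to 0.51 (edgeR adjusted p = 0.232), and in AtPHYB minus NT it was -0.70 with a 95% interval of -2.36 to 0.96 (edgeR adjusted p = 0.713). Single libraries moved these values, though no call changed. In AtPHYB minus NT the log2 fold change was -1.38 without AtPHYB replicate 2 and -0.23 without AtPHYB replicate 3. In G564E minus AtPHYB it was -0.67 without AtPHYB replicate 2, -1.81 without AtPHYB replicate 3 and -1.84 without G564E replicate 3. In G564E minus NT it ranged from -2.53 without G564E replicate 3 to -1.67 without G564E replicate 2. The 95% intervals are wide, and with few reads and a large spread between replicates even a several-fold difference of Bra007957 was not called. The spread of Bra007957 between replicates was large, with a biological coefficient of variation of 0.549 against a median of 0.241 over all tested genes and 0.248 for Bra016164.

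The activator TT8, Bra037887, was close to the detection limit. It had 6, 9 and 10 reads in NT replicates 1, 2 and 3, 7, 3 and 3 reads in AtPHYB, and 8, 10 and 11 reads in G564E. In CPM these were 0.360, 0.440 and 0.543 in NT, 0.388, 0.203 and 0.170 in AtPHYB, and 0.356, 0.564 and 0.510 in G564E. The 3 genotypes overlapped, with the lowest values in AtPHYB replicates 2 and 3, which were at the floor of 3 reads. TT8 averaged 0.448 ± 0.0921 CPM in the NT libraries, 0.254 ± 0.117 CPM in those of AtPHYB and 0.477 ± 0.108 CPM in those of G564E (mean ± SD, n = 3).

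In the fit without the filter, the log2 fold change of TT8 in G564E minus NT was 0.07 (SE 0.51), with a 95% interval of -1.08 to 1.22 (edgeR adjusted p = 0.966). In that fit 19.6% of genes were called in this comparison. In AtPHYB minus NT the log2 fold change was -0.80 with a 95% interval of -2.01 to 0.42 (edgeR adjusted p = 0.621; 0.150% of genes called), and in G564E minus AtPHYB it was 0.87 with a 95% interval of -0.34 to 2.07 (edgeR adjusted p = 0.270; 25.8% called). No difference in TT8 between the genotypes was detectable at this depth. The intervals give the differences that these data allow and are not a detection limit, as larger differences could also go uncalled after adjustment over all genes. The direction in G564E minus NT turned without NT replicate 1 (log2 fold change -0.06) and without G564E replicate 2 (-0.06).

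Summed reads give the precision that counting alone allows. TT8 had 25 reads over the NT libraries (exact 95% Poisson interval 16.2 to 36.9), 13 over AtPHYB (6.92 to 22.2) and 29 over G564E (19.4 to 41.6). Bra007957 had 41 (29.4 to 55.6), 22 (13.8 to 33.3) and 11 (5.49 to 19.7), and Bra016164 had 8123 (7947 to 8302), 8875 (8691 to 9062) and 1213 (1146 to 1283). For Bra016164 counting error was therefore small beside the spread between libraries in AtPHYB and G564E, where the SD was 19.2% and 39.1% of the mean. This does not hold in NT, where the SD was only 1.74% of the mean. For the other members counting error was large. After scaling, the summed reads of TT8 in G564E were 1.04 times those in NT, with an exact 95% interval of 0.590 to 1.86. Those of Bra007957 were 0.241 times those in NT, with an exact 95% interval of 0.112 to 0.478. Because PCR copies are not independent molecules, these intervals cover counting error only and leave out the spread between libraries.

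The relation between activator and repressor was then read within each library, where scaling between libraries cancels. The log2 ratio of TT8 reads to summed MYBL2 reads, with 0.5 reads added to each, was -8.59, -8.30 and -7.99 in NT, -8.56, -9.85 and -9.66 in AtPHYB, and -5.03, -5.57 and -5.29 in G564E (replicates 1, 2 and 3). The level of this ratio has no meaning of its own, since gene lengths were not used, but its change between genotypes can be read. All 3 G564E libraries lay above the other 6, while NT and AtPHYB overlapped. The ratio was higher in G564E by 3.00 than in NT and by 4.06 than in AtPHYB on the log2 scale, 7.98-fold and 16.7-fold, and each difference gave p = 0.1 in a 2-sided exact permutation test of 3 against 3 libraries, the smallest p this design allows (p = 0.3 after Benjamini-Hochberg adjustment over the 6 ratio comparisons made). In AtPHYB minus NT it differed by -1.06 (exact permutation p = 0.2, adjusted p = 0.3). Nearly all MYBL2 reads came from Bra016164, and TT8 itself was 0.477 against 0.448 CPM, so the ratio against NT moved with the lower Bra016164 count. The change against AtPHYB also holds a TT8 difference of 0.477 against 0.254 CPM. That difference was not called (log2 fold change 0.87, edgeR adjusted p = 0.270 in the fit without the filter).

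**Figure D3:**
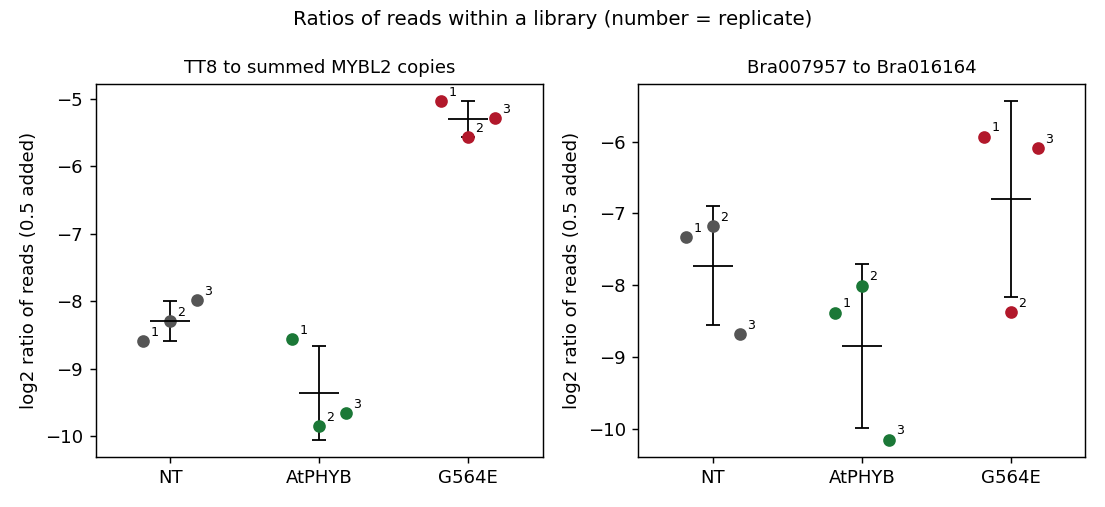
log2 ratios of reads within each library (0.5 reads added to each side), of TT8 to the summed MYBL2 copies and of Bra007957 to Bra016164; points are libraries marked with their replicate number, and bars with whiskers are means and SDs of 3 libraries. The G564E libraries lie between -5.57 and -5.03 for the first ratio, above all others, and overlap with NT and AtPHYB for the second.

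Whether the MYBL2 copies moved in proportion was examined with their own ratio. Bra007957 made up 0.598%, 0.669% and 0.225% of the MYBL2 reads in NT, 0.282%, 0.372% and 0.0705% in AtPHYB, and 1.44%, 0.201% and 1.34% in G564E (replicates 1, 2 and 3). The exact 95% binomial intervals of the G564E libraries were wide, from 0.00508% to 1.11% in replicate 2 and from 0.393% to 3.64% in replicate 1. The share was high in G564E replicates 1 and 3 and low in replicate 2, so the genotypes overlapped. The log2 ratio of Bra007957 to Bra016164 averaged -7.73 ± 0.825 in the NT libraries, -8.84 ± 1.14 in those of AtPHYB and -6.80 ± 1.37 in those of G564E (mean ± SD, n = 3). It was 0.93 higher in G564E than in NT (exact permutation p = 0.3), 2.05 higher in G564E than in AtPHYB (exact permutation p = 0.2) and 1.12 lower in AtPHYB than in NT (exact permutation p = 0.3), each with an adjusted p of 0.3. The size depended on the pseudocount and on single libraries. With 5 reads added to each side, the ratio was 1.70 higher in G564E than in NT and 2.44 higher than in AtPHYB, each with an unadjusted exact permutation p of 0.1, the smallest 3 against 3 libraries allow, and 0.74 lower in AtPHYB than in NT (p = 0.3). Bra007957 had only 4, 1 and 6 reads in the G564E libraries, so 5 added reads by themselves raise the ratio there. That setting therefore cannot show whether the copies moved in proportion. With single libraries left out, the difference of G564E from NT ranged from 0.46 without NT replicate 3 to 1.72 without G564E replicate 2. That of G564E from AtPHYB ranged from 1.39 without AtPHYB replicate 3 to 2.83 without G564E replicate 2, and that of AtPHYB from NT from -1.59 without NT replicate 3 to -0.46 without AtPHYB replicate 3. The mean ratio was higher in G564E with each single library left out. Whether the copies differed in their response was still not resolved, and with 1 to 20 reads of Bra007957 per library a large difference could go unseen. How reads that match both copies were counted is not given in the sources used here, so the small counts of Bra007957 are uncertain.

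Genes with the most similar pattern were sought by the root mean square difference of mean-centred log2 CPM over the 9 libraries, as a description without a test. A prior count of 2 was added before taking logs, which flattens the patterns of genes with few reads, such as TT8 and Bra007957. For Bra016164 the nearest of 27967 genes compared was Bra009062, at 0.146 log2 units, and 15 genes lay within 0.25. Bra009062 stood at 599, 467 and 583 CPM in NT, 529, 879 and 601 CPM in AtPHYB, and 46.3, 86.0 and 82.4 CPM in G564E, so AtPHYB replicate 2 was its highest and G564E replicate 1 its lowest library, as for Bra016164. The other members were less alike, since Bra007957 stood at 1.20 log2 units from Bra016164 and TT8 at 1.71, and 4113 genes were nearer to Bra016164 than Bra007957 was. For Bra007957 the nearest gene, Bra035210, was at 0.426 and itself had 1 to 13 reads per library. For TT8 the nearest was Bra013470, at 0.163, but 8539 genes lay within 0.5 of TT8, so its pattern, flattened by the prior count, singled out no gene. The files pair none of these IDs with a name.

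Bra016164 kept its direction and its side of the threshold in each comparison under every setting tried. Its log2 fold change ranged from -3.17 to -2.55 in G564E minus NT, from -3.45 to -2.72 in G564E minus AtPHYB and from 0.12 to 0.37 in AtPHYB minus NT. The smallest decreases in the G564E comparisons came from scaling by library size alone, under which the median over all tested genes shifted from 0.02 to 0.34 in G564E minus NT and from 0.05 to 0.47 in G564E minus AtPHYB. Relative to that median, Bra016164 stood at -2.88 with TMM and -2.89 with library size alone in G564E minus NT, and at -3.19 with either scaling in G564E minus AtPHYB.

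**Figure D4:**
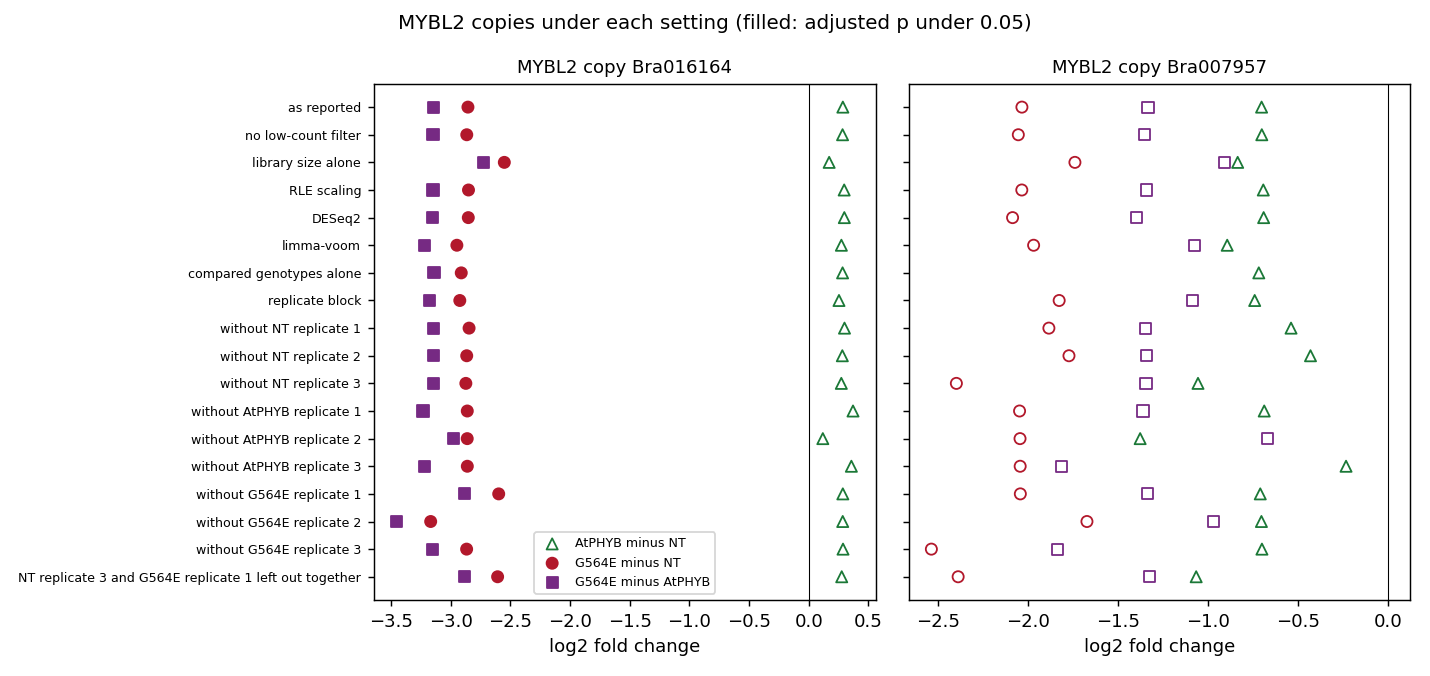
log2 fold change (x axis) of the MYBL2 copies under each setting (y axis: other scalings, filters and tests, and single libraries left out); symbols mark the comparison and are filled where the adjusted p was under 0.05. The G564E comparisons of Bra016164 are filled in every row, between -3.45 and -2.55, and no symbol of Bra007957 is filled; rows without a symbol are fits in which Bra007957 did not pass the filter.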

How the data were processed

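Per the labels' protocols, DNase-treated total RNA of whole seedlings was made into stranded mRNA libraries and sequenced on a NovaSeq instrument. The authors deposited 1 file per library, which holds unnormalized read counts by gene ID. Per the submitters' processing notes, FastQC 0.11.8, Trimmomatic 0.39, TopHat2, HTSeq and edgeR were used; their settings, the strand option, the annotation and the build were not given in the sources used here, so reads shared between gene copies or with an antisense gene could not be examined. Of the 41020 IDs, 5057 had no read.

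Genes were filtered with filterByExpr (defaults), scaled by TMM and fitted across all genes with edgeR 4.0.16 in R 4.3.3, with a mean per genotype over all 9 libraries. Standard errors are the log2 fold change over the square root of F, and 95% intervals use the fit's t quantiles. Library ratios were compared by exact permutation (scipy 1.17.1). DESeq2 1.42.0 and limma-voom (limma 3.58.1) were alternatives, and the model was tested on simulated data. The rule for the members uses ID and name, but members, lists and tests were chosen with earlier results of these data known. Lists of pathway genes and tissue markers, set by symbol, could not be tied to IDs and were not used. The genes named are the members and the nearest pattern of each. Bra037887 did not pass the filter, so its fits have none. No pair of libraries held identical counts. Libraries of the same number in AtPHYB and G564E deviated from their group means together (correlations of 0.116 to 0.405 in 3 pairs). Between these genotypes, libraries of unlike number had correlations from -0.384 to 0.184. The highest, AtPHYB replicate 2 with G564E replicate 3 (0.184), exceeded that of AtPHYB replicate 3 with G564E replicate 3 (0.116). The correlations therefore do not pair every library by number, and the meaning of the replicate numbers is unknown.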

Additional observations from a re-analysis of the deposited data

How the results depend on the processing

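The calls of the members did not change under any alternative run, and Bra007957 and Bra016164 kept their direction. TT8 changed direction in G564E minus NT, with log2 fold changes of -0.065 to 0.25 when single libraries were left out. Genes called in AtPHYB minus NT numbered 53 as reported, 901 in DESeq2, 199 when only those genotypes were fitted, 17 with the replicate block, 6 at an adjusted p under 0.01, and 6 to 783 with single libraries left out. Genes called in G564E minus NT numbered 7545 as reported, 3170 at an adjusted p under 0.01, and 4829 to 10702 with single libraries left out; in G564E minus AtPHYB these were 9777, 4684, and 6063 to 12878. The cause of these changes was not tested. With NT replicate 3 and G564E replicate 1 left out together, a setting chosen after seeing the data, AtPHYB minus NT had 3432 called genes. With the replicate block, Bra016164 had log2 fold changes of -2.92 (G564E minus NT) and -3.18 (G564E minus AtPHYB), and no member's call changed. The block treats libraries of the same number as belonging together, which no label states. Same-number pairs with an NT library had correlations of deviations from -0.172 to 0.085. Bra007957 gave no value in the fits of G564E with 1 other genotype, where it did not pass the filter. TT8 and Bra007957 had only 1 to 20 reads per library, and for Bra007957 the spread between replicates was large as well.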
